A study of Brassica rapa subsp. chinensis with 2 samples.

Results

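The genes of the circadian clock and their copies were compared between stems of the wax-less line ‘CX001’ and of the waxy line ‘FT’ of *Brassica rapa*. A gene was taken as a clock gene when the name of its best protein match, as given in the deposited table, named LHY, CIRCADIAN CLOCK ASSOCIATED 1, a pseudo-response regulator (APRR), EARLY FLOWERING 3 (ELF3), EARLY FLOWERING 4 (ELF4), an ELF4-LIKE protein, LUX (PCL1), GIGANTEA (GI), a REVEILLE factor (RVE) or an Adagio protein (ADO). The rule used names only and no measured value, and it took 48 of the 33087 genes. They carry 24 protein names, of which 17 belong to more than 1 gene. Both are doubled-haploid (DH) lines raised from microspores, ‘CX001’ of the flowering Chinese cabbage type and ‘FT’ of the Chinese cabbage type. The donor cultivars were ‘Super Grade 50 Sweet Flowering Chinese Cabbage’ for ‘CX001’ and ‘FT50’ for ‘FT’. ‘CX001’ carries the recessive *wlm1* allele, described by the study as the loss of BraA09g066480.3C, a *CER1* homologue for wax alkane synthesis. Stems at bolting were sequenced with 3 replicates per line, and nothing in the methods says whether these were separate plants, so the p-values refer to the spread between libraries of a line, which may be technical. The lines are of different crop types, and no effect of *wlm1* can be told apart from any other difference between their genomes. The hour at which the stems were cut is not given in the sources used here, so line and time of harvest cannot be told apart either.

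The plant clock is a set of loops of transcription factors that repress one another in turn through the day and night. In *Arabidopsis*, the MYB factors CCA1 and LHY peak around dawn, the pseudo-response regulators follow from morning to dusk and repress them, and ELF3, ELF4 and LUX form the evening complex, which represses genes at night. RVE8, RVE4 and RVE6 are MYB factors that activate evening genes, and GI and the Adagio F-box proteins control the stability of clock proteins. The transcripts of most of these genes cycle over the day. The ancestor of *B. rapa* tripled its genome, and many clock genes are present in several copies. How the copies found here arose was not tested. They are called by their gene IDs with the *Arabidopsis* name of the match.

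Values are read counts divided by a size factor of the library (normalised counts). The table gives their mean per line, and the whole reads of each of the 6 libraries were worked out from it. Libraries are numbered 1 to 3 within a line from the largest of these factors to the smallest, which is not the numbering of the study. The libraries held 14996444 to 16805422 reads over genes with a single solution. Correlations of log2 values over genes were at least 0.951 within a line and at most 0.765 between lines. The *CER1* homologue had 5.66, 11.6 and 25.7 normalised counts in ‘CX001’, against 14256, 16507 and 20003 in ‘FT’. Xylem markers summed to 18574 in ‘CX001’ and 6576 in ‘FT’ over 16 genes, of which 14 in ‘CX001’ and 13 in ‘FT’ reached 10. Photosynthetic markers summed to 210359 in ‘CX001’ and 337915 in ‘FT’ over 11 genes. Phloem and epidermis markers summed to 2144 and 2642 in ‘CX001’ and 2444 and 2657 in ‘FT’. Floral organ genes (5 matched) did not exceed 5.66 in ‘CX001’ and 0.70 in ‘FT’, and the 1 root gene matched did not exceed 0.32. The xylem and photosynthetic sums differed along with the values below, while the epidermis sums were close. The part of any marker level in the values below was not tested. In such bulk stems, fewer cells of a type and less RNA per cell cannot be told apart.

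Of the 48 clock genes, 42 had a mean of at least 10 normalised counts over the 6 libraries and were tested. In ‘CX001’, 7 were called higher and 6 lower than in ‘FT’, where a call takes an adjusted p below 0.05 and a change of more than 1 on the log2 scale (limma on log2(normalised count + 1), adjusted over all 25018 genes tested). These are 16.7% and 14.3% of the clock genes tested, beside 13.8% of all genes called higher and 15.6% called lower, so the clock genes were called about as often as genes in general. Without the fold minimum, 7 were higher and 10 lower, beside 24.6% and 24.4% of all genes. The 3 libraries of 1 line lay wholly above those of the other for 26 of the 42, beside 58.9% of all genes tested. Of the 13 called, 3 reached a mean of 10 in 1 line only and so passed the filter through the line where they were high. The median log2 fold change of the 42 was -0.13, with -0.0028 for all genes tested, and it ranged from -0.306 (without ‘FT’ library 3) to -0.055 (without ‘CX001’ library 2) when single libraries were left out. The median size of the change was 0.62 for the 42 and 0.60 for all genes. Called lower were neighbouring models of *LUX* on A03 and single copies of *ELF3*, *ELF4*, *RVE4* and *RVE7*, and called higher were both copies of *APRR9* and single copies of *APRR3*, *ELF4*, *EFL4*, *LUX* and *RVE5*.

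**Figure D1:**
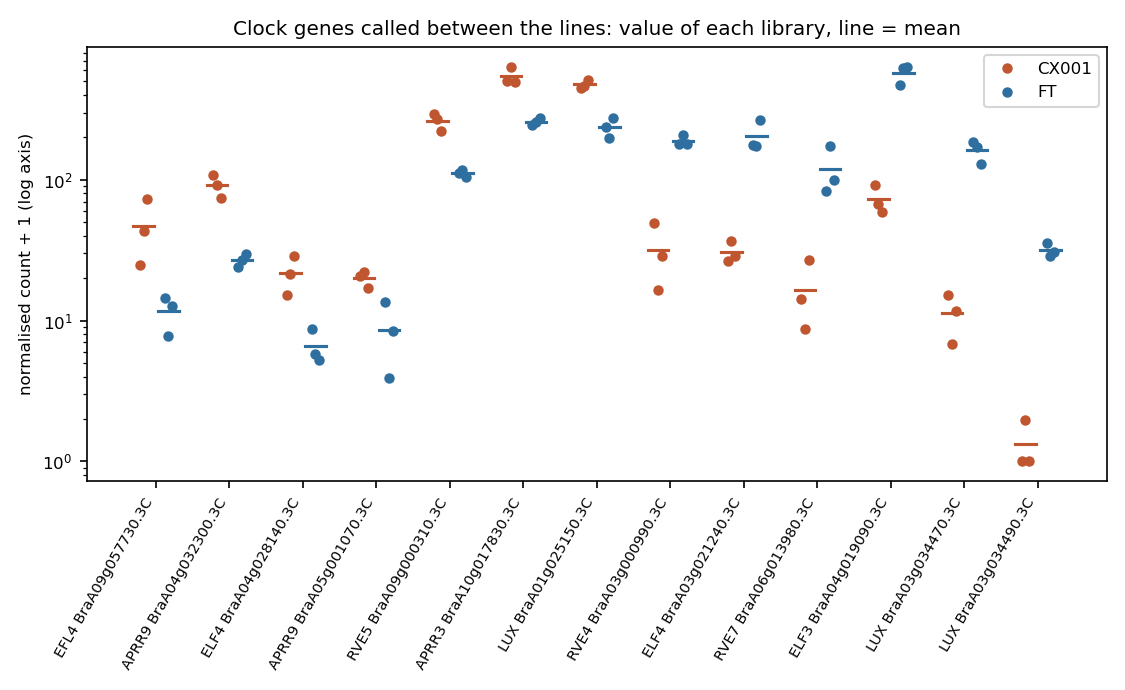
Normalised count + 1 on a log axis for the 13 clock genes called between the lines, ordered by log2 fold change. Points are the 3 libraries of ‘CX001’ (left of each pair) and of ‘FT’ (right), and bars their means. The pairs run from EFL4 BraA09g057730.3C (log2 fold change 1.93) at the left to LUX BraA03g034490.3C at the right. The latter had 1 read in all in ‘CX001’. The libraries of the lines do not overlap in these 13 genes, which were picked by their calls on the same libraries. Of all genes tested, 58.9% do not overlap either.

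Neither copy of the dawn factor *LHY* was called, and 3 *REVEILLE* genes were. Of 15 genes matched to LHY or REVEILLE factors, 11 were tested, with 1 called higher, 2 called lower and 8 not called. The more abundant *LHY* copy, BraA08g035740.3C, had 587, 710.3 and 706 normalised counts in ‘CX001’, against 539, 553 and 415 in ‘FT’. The ‘CX001’ libraries were all above those of ‘FT’, by less than the minimum (log2 fold change 0.42, SE 0.15, adjusted p = 0.0548). The second *LHY* copy, BraA10g000820.3C, had 258, 246 and 181 in ‘CX001’, against 192, 239 and 168 in ‘FT’, and the lines overlapped (log2 fold change 0.19, SE 0.21, adjusted p = 0.469). The gene BraA05g001030.3C is described in the table as protein CCA1, wording which the naming rule does not take in, and it was looked up after values had been seen. It had 391, 321 and 372 normalised counts in ‘CX001’, against 254, 227 and 295 in ‘FT’. All ‘CX001’ libraries were above all ‘FT’ libraries, again under the fold minimum (log2 fold change 0.48, SE 0.16, adjusted p = 0.0344).

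*RVE4*, an activator of evening genes, was lower in ‘CX001’. The copy BraA03g000990.3C (A03:441955-443725) had 48.1, 15.4 and 27.9 normalised counts in ‘CX001’, against 179, 208 and 178 in ‘FT’. The lowest ‘FT’ library was 3.70 times the highest of ‘CX001’, whose libraries spanned 3.12-fold among themselves (log2 fold change -2.73, SE 0.39, adjusted p = 7.35e-04). The other *RVE4* copies were not tested. BraA02g020630.3C had 1, 6 and 4 reads in the ‘CX001’ libraries and 0 in those of ‘FT’. BraA03g065510.3C had 2, 5 and 1 reads in ‘CX001’ and 0 in ‘FT’, and in both copies ‘CX001’ library 2 held the most. Their models are short, with coding lengths of 465 and 381 bases against 864 for the main copy.

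*RVE7*, a MYB factor that in *Arabidopsis* responds early to phytochrome, was called lower as well. BraA06g013980.3C (A06:7374657-7376037) had 13.2, 7.72 and 25.7 normalised counts in ‘CX001’, against 81.8, 173 and 98.0 in ‘FT’. The lines did not overlap, although libraries spanned 3.33-fold within ‘CX001’ and 2.12-fold within ‘FT’ (log2 fold change -2.92, SE 0.47, adjusted p = 0.00142). *RVE5*, a less studied relative of RVE8, was the only gene of the family called higher. BraA09g000310.3C (A09:128257-129997) had 293, 269 and 222 normalised counts in ‘CX001’, against 109.7, 117 and 103 in ‘FT’, with every ‘CX001’ library above every ‘FT’ library (log2 fold change 1.23, SE 0.18, adjusted p = 8.10e-04).

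The activators closest to RVE4 moved in neither direction past the thresholds. The *RVE8* copy BraA01g040680.3C had 37.8, 49.2 and 47.1 normalised counts in ‘CX001’, against 13.5, 27.9 and 29.5 in ‘FT’. The lines did not overlap, and the adjusted p missed the threshold (log2 fold change 0.96, SE 0.37, adjusted p = 0.0613). The other *RVE8* copy, BraA05g036930.3C, had means of 22.8 ± 8.50 in ‘CX001’ and 23.5 ± 5.39 in ‘FT’ (SD, n = 3 each), a log2 fold change of -0.09 whose sign turned when single libraries were left out. For *RVE6*, BraA03g014850.3C had 234, 243 and 228 normalised counts in ‘CX001’, against 383, 305 and 248 in ‘FT’. ‘FT’ was higher in each of its libraries, with a log2 fold change of -0.38 (95% interval -0.80 to 0.04), and the second copy BraA10g010970.3C gave -0.54 (interval -1.06 to -0.03, adjusted p = 0.0747). Neither copy passed.

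*RVE2*, whose *Arabidopsis* counterpart is also named CIRCADIAN 1, matched BraA05g015000.3C, with 57.6, 21.2 and 52.5 normalised counts in ‘CX001’, against 48.1, 61.6 and 65.4 in ‘FT’. The low value was ‘CX001’ library 2, and the lines overlapped (log2 fold change -0.52, interval -1.44 to 0.41). The *RVE3* gene BraA10g000470.3C had 33.0, 21.2 and 16.1 in ‘CX001’, against 8.66, 16.4 and 20.03 in ‘FT’, also overlapping (0.62, interval -0.38 to 1.63). *RVE1*, which in *Arabidopsis* links the clock to auxin, was not tested. Its copy BraA03g007900.3C had 3.78, 4.83 and 5.36 normalised counts in ‘CX001’, against 3.85, 0 and 5.27 in ‘FT’, and BraA02g006960.3C had 0 reads in each ‘CX001’ library, against 2, 8 and 0 reads in those of ‘FT’, so that the lines overlapped.

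Among the pseudo-response regulators, the morning gene *APRR9* and *APRR3* were higher in ‘CX001’, while the 7 tested copies matched to *APRR1*, *APRR5* and *APRR7* had log2 fold changes from -0.98 to 0.20. Of 14 genes, 12 were tested, with 3 called higher, 0 called lower and 9 not called. Without the fold minimum, 3 were higher and 4 lower. The *APRR9* copy BraA04g032300.3C (A04:21769471-21771692) had 108, 90.7 and 72.8 normalised counts in ‘CX001’, against 23.1, 26.0 and 28.5 in ‘FT’. The lowest ‘CX001’ library was 2.56 times the highest of ‘FT’ (log2 fold change 1.75, SE 0.27, adjusted p = 0.0011). The copy BraA05g001070.3C (A05:629849-631341) was low, with 19.8, 21.2 and 16.1 in ‘CX001’, against 12.5, 2.89 and 7.38 in ‘FT’. The lines did not overlap, and the call stood at the threshold (log2 fold change 1.39, SE 0.50, adjusted p = 0.0495). This copy passed the filter on low means through its ‘CX001’ libraries. It was lost with a pseudocount of 0.5, without the filter, with library totals, with voom weights and without any single library other than ‘FT’ library 1. Over the single libraries left out, the adjusted p ranged from 0.0273 to 0.127 and the log2 fold change from 0.90 (without ‘FT’ library 2) to 1.80.

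*APRR3*, which in *Arabidopsis* protects APRR1 from degradation, has a single gene here, BraA10g017830.3C (A10:13360770-13362970). It had 502, 631 and 495 normalised counts in ‘CX001’, against 244, 255 and 272 in ‘FT’. The libraries were tight within a line, and the lowest of ‘CX001’ was 1.82 times the highest of ‘FT’ (log2 fold change 1.07, SE 0.15, adjusted p = 6.11e-04). Without ‘CX001’ library 2 the log2 fold change was 0.95, under the minimum.

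*APRR7*, which represses the dawn factors, was the most abundant clock gene per coding length. BraA10g032970.3C had 2246, 2542 and 2669 normalised counts in ‘CX001’, against 3107, 3099.7 and 2949 in ‘FT’. All ‘FT’ libraries were above all ‘CX001’ libraries, by a small margin (log2 fold change -0.30, SE 0.12, adjusted p = 0.067). Its mean per kilobase of coding length was 1189 in ‘CX001’ and 1459.6 in ‘FT’. The copy BraA02g000630.3C had 1088, 1066 and 1094 in ‘CX001’, against 1569, 1887 and 1539 in ‘FT’, where the lines were again apart (log2 fold change -0.61, SE 0.12, adjusted p = 0.00373). The adjusted p passed, and the change was under the fold minimum.

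*APRR1*, also called *TOC1*, the evening repressor of the dawn factors, has its main copy in BraA03g044360.3C, with 967, 495 and 623 normalised counts in ‘CX001’, against 991, 1411 and 1381 in ‘FT’. ‘CX001’ library 1 almost reached the lowest ‘FT’ library, and the other ‘CX001’ libraries were well under it (log2 fold change -0.90, SE 0.25, adjusted p = 0.0186). Without ‘CX001’ library 1 the log2 fold change was -1.16, and without ‘FT’ library 1 it was -1.06, both past the thresholds. The second copy, BraA09g006930.3C, had 263, 162 and 237 in ‘CX001’, against 192, 204 and 169.7 in ‘FT’, and the lines overlapped (log2 fold change 0.20, SE 0.21, adjusted p = 0.468).

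*APRR5* has 3 copies, all with a higher mean in ‘FT’. The main one, BraA06g031850.3C, had 685, 377 and 459.5 normalised counts in ‘CX001’, against 646, 579 and 968 in ‘FT’, and the lines overlapped (log2 fold change -0.53, SE 0.26, adjusted p = 0.123). In BraA09g006120.3C the values were 74.6, 50.2 and 51.4 in ‘CX001’, against 106, 119 and 120.2 in ‘FT’, with no overlap (log2 fold change -0.98, SE 0.24, adjusted p = 0.0105), just under the fold minimum. It passed without ‘CX001’ library 1 (-1.16), without ‘FT’ library 1 (-1.04) and when scaled by library totals (-1.04). The third copy, BraA02g042140.3C, had a log2 fold change of -0.63 (interval -1.51 to 0.25) and overlapping libraries. *APRR2*, which lies outside the core clock and is linked to pigmentation in tomato and pepper fruit, has its main copy in BraA01g009590.3C, with 294, 180.5 and 241 normalised counts in ‘CX001’, against 378, 483 and 315 in ‘FT’. The lines did not overlap (log2 fold change -0.72, SE 0.23, adjusted p = 0.0302), and BraA03g047980.3C gave -0.71 (adjusted p = 0.116). Both copies matched to *APRR6* held at most 1 read per line and were not tested, the higher one being BraA07g033540.3C, with 0, 0.965 and 0 in ‘CX001’, against 0, 0.963 and 0 in ‘FT’.

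**Figure D2:**
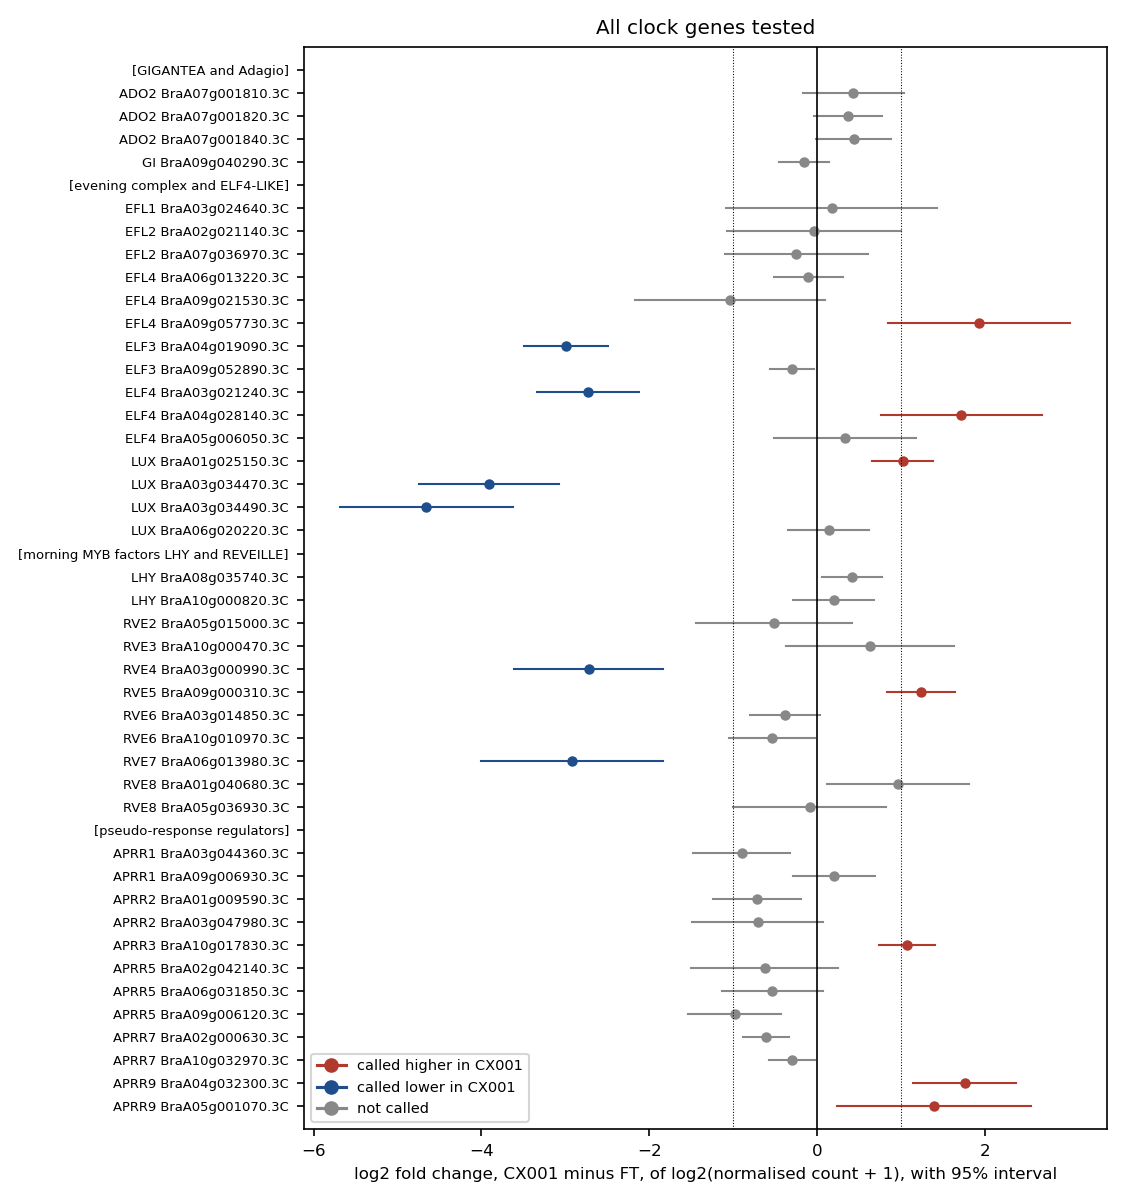
Log2 fold change (‘CX001’ minus ‘FT’, of log2(normalised count + 1)) with its 95% interval for the 42 clock genes tested, grouped by role. Dotted lines mark the fold minimum of 1, red points are called higher in ‘CX001’, blue points called lower and grey points not called. The 4 genes of GIGANTEA and Adagio lie between -0.16 and 0.43. The evening complex and ELF4-LIKE genes together span -4.66 to 1.93, the highest being an *EFL4* copy. The lowest is the *LUX* model with 1 ‘CX001’ read, whose fitted value depends on the count of 1 added.

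The genes of the evening complex held the largest differences, and copies of 1 gene were called in opposite directions. Of 15 genes matched to ELF3, ELF4, ELF4-LIKE proteins or LUX, all 15 were tested, with 3 called higher, 4 called lower and 8 not called. *ELF3*, the scaffold of the complex, has a copy on A04 that was lower in ‘CX001’. This gene, BraA04g019090.3C (A04:14426412-14429545), had 90.6, 66.6 and 57.8 normalised counts in ‘CX001’, against 472, 618 and 634 in ‘FT’. The lowest ‘FT’ library was 5.20 times the highest of ‘CX001’ (log2 fold change -3.00, SE 0.22, adjusted p = 2.33e-05). The A09 copy, BraA09g052890.3C (A09:38485435-38488092), had 458, 437 and 486 in ‘CX001’, against 562.1, 576 and 561 in ‘FT’. The lines were apart there too, by a far smaller step that missed the threshold (log2 fold change -0.30, SE 0.11, adjusted p = 0.0596).

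*ELF4*, a small partner of ELF3, has 3 copies. BraA03g021240.3C (A03:10134978-10135322) had 25.5, 35.7 and 27.9 normalised counts in ‘CX001’, against 176, 173 and 262 in ‘FT’, so that the lowest ‘FT’ library was 4.85 times the highest of ‘CX001’ (log2 fold change -2.73, SE 0.26, adjusted p = 1.02e-04). The copy BraA04g028140.3C (A04:19742478-19742822) had 14.2, 20.3 and 27.9 in ‘CX001’, against 7.70, 4.81 and 4.22 in ‘FT’. It was low in both lines and higher in all libraries of ‘CX001’ (log2 fold change 1.71, SE 0.42, adjusted p = 0.0102), through which it passed the filter on low means. The third copy, BraA05g006050.3C, had 26.4, 28.0 and 47.1 in ‘CX001’, against 18.3, 29.9 and 31.6 in ‘FT’, with overlap (log2 fold change 0.33, SE 0.37, adjusted p = 0.489).

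*LUX* encodes the DNA-binding member of the complex, and its 4 gene models differed in direction. BraA01g025150.3C (A01:14865984-14866841) had 448, 465 and 513 normalised counts in ‘CX001’, against 237, 198 and 272 in ‘FT’. The lowest ‘CX001’ library was 1.65 times the highest of ‘FT’ (log2 fold change 1.02, SE 0.16, adjusted p = 0.00117). The change lay close to the minimum: without ‘CX001’ library 3 it was 0.96, without ‘FT’ library 2 it was 0.90 and scaled by library totals 0.96, each under 1.

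The models BraA03g034470.3C (A03:17039949-17040356) and BraA03g034490.3C (A03:17045246-17047389) are direct neighbours in the table on A03, 4889 bases apart on the plus strand. BraA03g034470.3C had 14.2, 5.79 and 10.7 normalised counts in ‘CX001’, against 185, 169 and 128 in ‘FT’, and the lowest ‘FT’ library was 9.01 times the highest of ‘CX001’ (log2 fold change -3.91, SE 0.36, adjusted p = 8.23e-05). BraA03g034490.3C had 1 read over the ‘CX001’ libraries, against 34.6, 27.9 and 29.5 normalised counts in the ‘FT’ libraries, or 93 reads. The ‘CX001’ level was 1.05% of that in ‘FT’ (95% exact Poisson interval 0.0265% to 5.84%, counting error only), at adjusted p = 9.66e-05, and this model passed the filter on low means through its ‘FT’ libraries. Their coding lengths of 408 and 546 bases are shorter than the 858 and 915 of the other *LUX* models, and whether they are parts of 1 gene was not tested. BraA06g020220.3C had 100.1, 97.5 and 116 in ‘CX001’, against 95.3, 81.8 and 109 in ‘FT’, and the lines overlapped (log2 fold change 0.14, SE 0.21, adjusted p = 0.618).

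The *ELF4-LIKE* genes, relatives of *ELF4* whose roles are less known, had 1 of 6 genes called. This was the *EFL4* copy BraA09g057730.3C (A09:41019685-41020023), with 23.6, 42.5 and 71.8 normalised counts in ‘CX001’, against 13.5, 6.74 and 11.6 in ‘FT’. The lines did not overlap, although the ‘CX001’ libraries themselves spanned 3.04-fold (log2 fold change 1.93, SE 0.47, adjusted p = 0.0105). The main *EFL4* copy, BraA06g013220.3C, had 196, 160.2 and 174 in ‘CX001’, against 202, 206 and 163 in ‘FT’, with overlap (log2 fold change -0.11, interval -0.51 to 0.30). The third *EFL4* copy, BraA09g021530.3C, with a longer coding length of 1101 bases, gave -1.04 (adjusted p = 0.113), and passed only without ‘FT’ library 3 (-1.45, adjusted p = 0.0491). The main *EFL2* copy, BraA07g036970.3C, had 107, 95.5 and 139 in ‘CX001’, against 175, 189 and 72.7 in ‘FT’. Here ‘FT’ library 3 stood under all ‘CX001’ libraries and the other ‘FT’ libraries above them. The second *EFL2* copy, BraA02g021140.3C, had means of 19.96 ± 10.1 in ‘CX001’ and 19.6 ± 6.11 in ‘FT’ (SD, n = 3 each, adjusted p = 0.953). *EFL1*, BraA03g024640.3C, had 7.55, 7.72 and 18.2 in ‘CX001’, against 8.66, 4.81 and 16.9 in ‘FT’ (adjusted p = 0.816), and the sign of neither gene's log2 fold change held when single libraries were left out.

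*GI* and the Adagio genes, which act on protein stability, had no gene called. *GI*, BraA09g040290.3C (A09:31442790-31447320), had 2716, 2681 and 2491 normalised counts in ‘CX001’, against 2869, 2620.1 and 3363 in ‘FT’. The libraries overlapped (log2 fold change -0.16, SE 0.13, adjusted p = 0.343), with a 95% interval of -0.46 to 0.14. *ADO2*, also called *LKP2*, a blue-light sensing F-box protein, matched 3 neighbouring genes on A07, 1687 and 6194 bases apart with no other gene of the table between them. The most abundant, BraA07g001810.3C, had 338, 207 and 257 normalised counts in ‘CX001’, against 159.8, 169 and 272 in ‘FT’, with overlap (log2 fold change 0.43, SE 0.26, adjusted p = 0.209). The other copies, BraA07g001820.3C and BraA07g001840.3C, were higher in each ‘CX001’ library and gave 0.37 and 0.43 (adjusted p = 0.119 and 0.0971). How reads that match several near-identical copies were counted is not given in the sources used here, so the split between these 3, and between other close copies, is uncertain. By the naming rule, no gene was matched to *ADO1* or *ADO3*, so these were not analysed here.

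Among names with several tested copies, only *APRR9* had all of them called, and 1 of its calls stood at the threshold. Of the 17 names with several genes, 9 had no copy called, *APRR9* had both copies called and *RVE4* had its 1 tested copy called. *EFL4* and *ELF3* had 1 copy called and others not, and *ELF4* and *LUX* had copies called in both directions. The higher *ELF4* copy and 1 of the lower *LUX* models passed the filter on low means through 1 line only. The higher *LUX* copy lay close to the fold minimum and lost its call in some of the alternatives. For *APRR6* and *RVE1* no copy was tested. The copies of a name were also summed. With 3 libraries against 3 an exact permutation test cannot go below 0.10, so sums and shares are given by library without a test.

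The sum of both *ELF3* copies was 548, 504 and 544 in ‘CX001’, against 1034, 1194 and 1194 in ‘FT’, a ratio of 0.467. The A04 copy made up 16.5%, 13.2% and 10.6% of it in ‘CX001’ and 45.6%, 51.8% and 53.0% in ‘FT’. Reads counted on *ELF3* were split almost evenly over the copies in ‘FT’ and lay mainly on the A09 copy in ‘CX001’. The sum of the *ELF4* copies was 66.1, 84.0 and 103 in ‘CX001’, against 202, 208 and 298 in ‘FT’, a ratio of 0.357. Its A03 copy held 38.6%, 42.5% and 27.1% in ‘CX001’ and 87.1%, 83.3% and 88.0% in ‘FT’.

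For *LUX*, the rise of the A01 copy was larger than the falls of the A03 models together. The 4 models summed to 563, 569 and 640 in ‘CX001’, against 552, 478 and 538 in ‘FT’, a ratio of 1.13, with the lines just apart. The A01 copy held 79.7%, 81.7% and 80.2% in ‘CX001’ and 42.9%, 41.5% and 50.6% in ‘FT’. Of the neighbouring A03 models, BraA03g034470.3C held 2.52%, 1.02% and 1.68% in ‘CX001’ and 33.5%, 35.5% and 23.7% in ‘FT’. The share of the A06 copy overlapped between the lines, at 17.8%, 17.1% and 18.1% in ‘CX001’ and 17.3%, 17.1% and 20.2% in ‘FT’. Among other families, the sums gave a ratio of 3.27 for *APRR9*, 0.195 for *RVE4*, 0.632 for *APRR1*, 0.668 for *APRR5*, 0.757 for *APRR7*, 1.28 for *LHY* and 0.991 for *EFL4*. Reads were placed on the genes of *B. rapa* genome V3.0 for both lines. A copy whose sequence differs from that reference or is missing in 1 line would take fewer reads there, and this cannot be told apart from lower expression in these data.

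**Figure D3:**
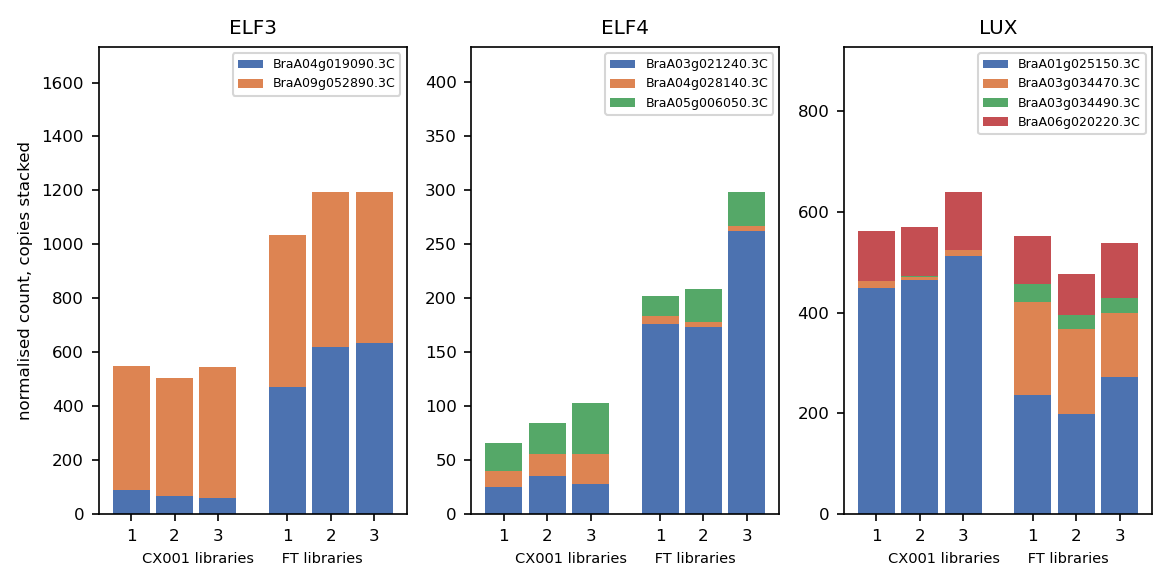
Normalised counts of the copies of *ELF3*, *ELF4* and *LUX*, stacked for each library, with the 3 libraries of ‘CX001’ left of those of ‘FT’ (linear axes from 0, a scale of its own for each gene). The stacks are lower in ‘CX001’ for *ELF3* (ratio of means 0.467) and *ELF4* (0.357) and not lower for *LUX* (1.13), where the A01 copy fills 79.7% to 81.7% of the stack in ‘CX001’.

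Clock transcripts also spread between libraries of 1 line. The coefficient of variation of the 42 genes tested had a median of 23.5% in ‘CX001’ and 16.9% in ‘FT’, beside 17.7% and 15.6% for all genes. ‘CX001’ library 2 held the lowest of the 3 values for 21 of the 42 genes, beside 28.3% of all genes tested. For the pseudo-response regulators it was lowest in 8 of 12. ‘CX001’ library 1 was highest in 7 of these 12 and in 19 of the 42, where 34.8% of all genes had their highest value. In ‘FT’, library 3 held both the most lowest values (17 of 42) and the most highest values (17 of 42). The genes of 1 library are not independent of one another, and these counts describe the libraries only.

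Genes linked to the clock as light inputs, regulators or outputs were counted from lists made by protein name outside the 48. Of 84 such genes, 70 were tested, with 9 called higher and 11 called lower in ‘CX001’. These shares of 12.9% and 15.7% stand beside the 13.8% and 15.6% of all genes, and the median log2 fold change was -0.19. Without the fold minimum 13 (18.6%) were higher and 22 (31.4%) lower, beside 24.6% and 24.4%. The search by name for LNK proteins matched 0 genes, so these were not analysed here.

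Among the light receptors, the 3 cryptochrome genes were called lower in ‘CX001’. Of 8 phytochrome and cryptochrome genes tested (of 9), 1 was called higher and 3 lower. Without the fold minimum 1 was higher and 5 lower, beside 24.6% and 24.4% of all genes. The lower ones then took in *PHYC* BraA05g015210.3C (log2 fold change -0.68, adjusted p = 0.0091) and *PHYE* BraA01g009650.3C (-0.66, adjusted p = 0.00392), both with libraries apart. The tested *PHYB* gene had overlapping libraries (-0.195, adjusted p = 0.334). *CRY2* encodes a blue-light receptor that promotes flowering, and its copy BraA10g002940.3C had 338, 256 and 395 normalised counts in ‘CX001’, against 2040.5, 1942 and 2193 in ‘FT’. The lowest ‘FT’ library was 4.91 times the highest of ‘CX001’ (log2 fold change -2.66, SE 0.17, adjusted p = 1.30e-05). The second *CRY2* copy, BraA08g034900.3C, had 407, 418 and 557 in ‘CX001’, against 1185, 1326 and 1157 in ‘FT’, also apart (log2 fold change -1.42, SE 0.15, adjusted p = 1.65e-04). For *CRY1*, its relative that limits stem elongation, BraA09g029430.3C had 751, 587 and 1021 normalised counts in ‘CX001’, against 1723, 2039 and 1818 in ‘FT’, without overlap (log2 fold change -1.27, SE 0.20, adjusted p = 0.00116). The gene called higher was BraA09g062320.3C, a copy of the far-red receptor gene *PHYA*, with 182, 92.6 and 95.3 in ‘CX001’, against 26.9, 53.0 and 25.3 in ‘FT’ (log2 fold change 1.79, SE 0.39, adjusted p = 0.006). The more abundant *PHYA* copy, BraA06g006450.3C, was not called, with means of 673 in ‘CX001’ and 593 in ‘FT’ (log2 fold change 0.18, adjusted p = 0.242).

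Phytochrome-interacting factors, bHLH proteins that promote elongation and are removed in light, were called higher in 3 and lower in 1 of 8 tested (of 9). *PIF5* was the most abundant of those called, where BraA09g049120.3C had 1190.2, 994 and 1248 normalised counts in ‘CX001’, against 508, 501 and 550.3 in ‘FT’ (log2 fold change 1.13, SE 0.13, adjusted p = 2.31e-04). *PIF4* in BraA04g030640.3C had 21.7, 20.3 and 37.5 in ‘CX001’, against 0.963, 2.89 and 3.16 in ‘FT’, a gene with 7 reads in all in ‘FT’ that passed the filter on low means through its ‘CX001’ libraries (log2 fold change 3.06, SE 0.47, adjusted p = 0.00111). *PIF6* in BraA09g051610.3C had 513, 167 and 259 in ‘CX001’, against 69.3, 68.4 and 49.5 in ‘FT’, with a span of 3.08-fold within ‘CX001’ (log2 fold change 2.17, SE 0.39, adjusted p = 0.00232). *PIF3* in BraA06g006410.3C went the other way, with 268, 293 and 165 in ‘CX001’, against 643, 659 and 586 in ‘FT’ (log2 fold change -1.42, SE 0.22, adjusted p = 0.00113). Other copies of *PIF4*, *PIF6* and *PIF3* were tested and not called. The more abundant *PIF4* copy, BraA03g022510.3C, had means of 108 in ‘CX001’ and 93.2 in ‘FT’ (log2 fold change -0.22, adjusted p = 0.804). BraA07g024970.3C (*PIF6*) gave 0.23 (adjusted p = 0.63) and BraA09g062360.3C (*PIF3*) gave -0.43 (adjusted p = 0.106).

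Of the CONSTANS family, zinc finger proteins of which CONSTANS itself triggers flowering in long days, 29 of 39 genes were tested, with 2 called higher and 5 lower. *COL15* in BraA07g011890.3C had 100.1, 70.4 and 64.3 normalised counts in ‘CX001’, against 729.6, 679 and 772 in ‘FT’, with the lines far apart (log2 fold change -3.22, SE 0.19, adjusted p = 1.05e-05). Its copy BraA09g036670.3C had 32.1, 18.3 and 22.5 in ‘CX001’, against 482, 214 and 235 in ‘FT’, also without overlap (log2 fold change -3.56, SE 0.36, adjusted p = 1.32e-04). *COL9*, which delays flowering in *Arabidopsis*, was lower in BraA05g038050.3C, with 136, 77.2 and 175 in ‘CX001’, against 477, 587 and 413 in ‘FT’ (log2 fold change -1.98, SE 0.30, adjusted p = 9.61e-04). *COL1*, a close relative of CONSTANS, was higher in BraA10g023720.3C, with 33.0, 67.6 and 56.8 in ‘CX001’, against 8.66, 3.85 and 4.22 in ‘FT’ (log2 fold change 3.04, SE 0.43, adjusted p = 7.87e-04). This copy too passed the filter through ‘CX001’ only. Other tested copies of *COL15*, *COL9* and *COL1* were not called. Their log2 fold changes were -0.69 for *COL15* BraA08g024590.3C, and -0.72 and -0.03 for *COL9* BraA03g033390.3C and BraA01g041410.3C. For *COL1* they were -0.33 in BraA02g006230.3C and 0.83 in BraA10g017790.3C.

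The cyclic DOF factors, repressors of *CONSTANS* that GI helps to remove, had 1 gene called higher and 0 lower among 6 tested (of 8). That gene was *CDF5*, BraA07g030330.3C, with 155, 145 and 137 normalised counts in ‘CX001’, against 25.0, 16.4 and 51.7 in ‘FT’ (log2 fold change 2.35, SE 0.39, adjusted p = 0.00175). The other *CDF5* copy, BraA07g034480.3C, had overlapping libraries and was not called (log2 fold change 0.40, adjusted p = 0.394). Among 18 other clock regulators, 2 were called higher and 1 lower. *TCP21*, a repressor of *CCA1* in *Arabidopsis*, had copies called in opposite directions, while its most abundant copy was not called. BraA03g003460.3C had 200.1, 148 and 162 in ‘CX001’, against 47.2, 27.9 and 74.8 in ‘FT’ (log2 fold change 1.84, SE 0.35, adjusted p = 0.00342), whereas BraA02g002690.3C had 108, 146 and 78.2 in ‘CX001’, against 355, 247 and 504 in ‘FT’ (log2 fold change -1.72, SE 0.31, adjusted p = 0.00254). The most abundant copy, BraA10g030640.3C, had means of 384 in ‘CX001’ and 515 in ‘FT’, and the lines overlapped (log2 fold change -0.34, adjusted p = 0.364). *CKB3* encodes a regulatory subunit of casein kinase II, which modifies CCA1. Its copy BraA09g050080.3C had 795, 871 and 781 normalised counts in ‘CX001’, against 426, 360.1 and 399.5 in ‘FT’. This copy was called higher (log2 fold change 1.04, SE 0.12, adjusted p = 2.88e-04). Its change fell under the minimum when scaled by library totals (0.98) or without ‘FT’ library 2 (0.98), and at 0.996 without ‘CX001’ library 2. The other *CKB3* copy, BraA07g024210.3C, passed the adjusted p and not the fold minimum (log2 fold change 0.66, adjusted p = 0.0021). Both *CKB2* copies passed the adjusted p on the lower side, also under the fold minimum (-0.66 and -0.93). No other casein kinase II beta gene of the list passed the adjusted p. The 1 glycine-rich RNA-binding match, *RBG7*, a clock output that feeds back on its own transcript, was lower in BraA02g013200.3C, with 124, 80.1 and 110.3 in ‘CX001’, against 239.7, 253 and 236 in ‘FT’ (log2 fold change -1.23, SE 0.21, adjusted p = 0.00168).

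**Figure D4:**
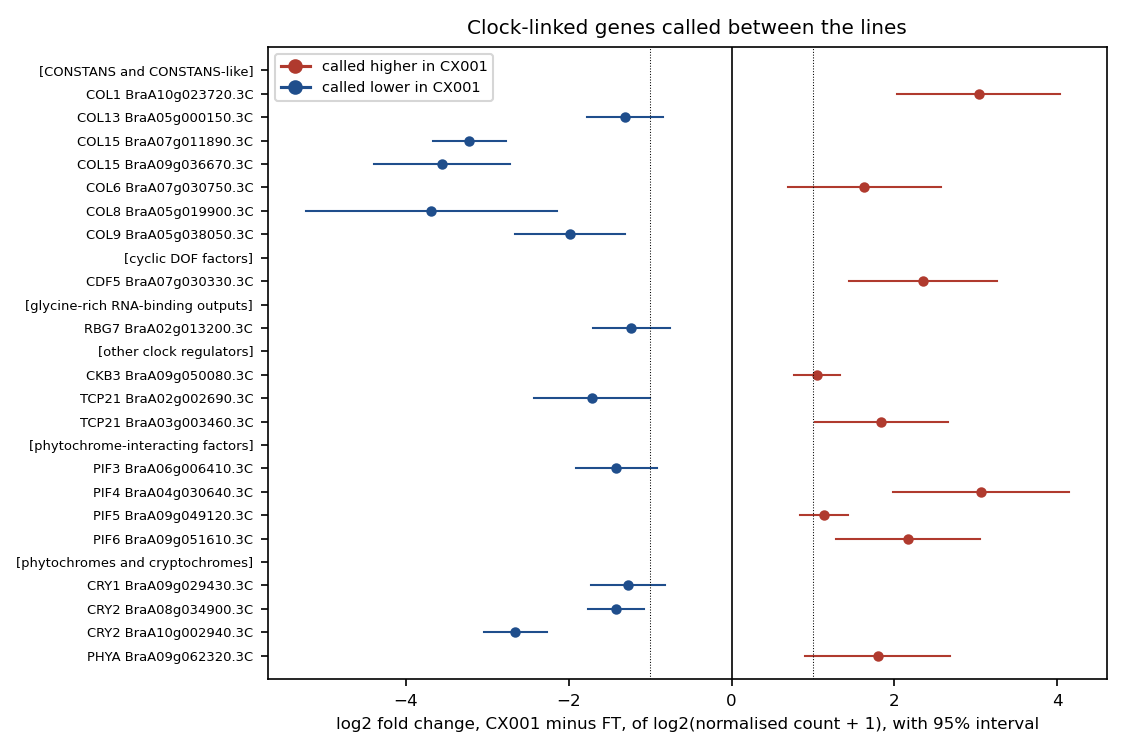
Log2 fold change (‘CX001’ minus ‘FT’, of log2(normalised count + 1)) with its 95% interval for the 20 clock-linked genes called between the lines, grouped by list. Dotted lines mark the fold minimum of 1. The 3 cryptochrome genes called are on the lower side (-2.66 to -1.27), and 3 of the 4 phytochrome-interacting factors are on the higher side, up to 3.06 for PIF4, a gene with 7 reads in all in ‘FT’.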

How the data were processed

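Stem RNA of ‘CX001’ and ‘FT’ was sequenced by the authors on an Illumina Hiseq4000, with 3 replicates per line. By the methods, reads were filtered, aligned with HISAT2, assembled with StringTie and compared with DESeq2, and the submitters' notes also name TopHat2. Versions of HISAT2 and DESeq2 are not given in the sources used here. The signal values deposited by the authors are means per line of read counts divided by size factors. The authors' fold changes, p-values and regulation labels in the table were not used, and 0 columns of single libraries were left unmapped. Gene starts, ends and coding lengths (all multiples of 3) are as deposited, on *B. rapa* genome V3.0.

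Each mean is a sum of 3 whole read numbers times the step of its library, and it has 15 digits. The reads per library were recovered from it: 0 genes had no solution, and 24 genes in ‘CX001’ and 21 in ‘FT’, none with a mean under 18740, had several. These 32 genes in all were left out, none of them a clock gene. Of 1000 altered means per line, 0 had a solution.

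Log2(normalised count + 1) was fitted with limma 3.58.1 in R 4.3.3 (trended empirical Bayes, two-sided, Benjamini-Hochberg over 25018 genes whose mean reached 10). The test was planned on the log scale because the deposited unit is a normalised mean. No count model was fitted to the recovered reads. The procedure was checked on simulated data. Alternatives were pseudocounts of 0.5 and 4, no filter, scaling by library totals, voom weights, no fold minimum and leaving out each library. Values per library are given for each clock gene called and for the most abundant copy of each name, and for up to 4 called genes per linked list with the smallest adjusted p. The clock genes and lists were chosen with earlier results of these data known. Python 3.11.15, numpy 2.4.6, pandas 2.3.3, scipy 1.17.1 and matplotlib 3.10.9 were used. Reads are not independent molecules, so intervals and floors cover counting error only.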

Additional observations from a re-analysis of the deposited data

How the results depend on the processing

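The 7 clock genes called higher became 5 to 8 and the 6 called lower became 6 to 8 over the alternatives that kept the fold minimum. Without it, 10 clock genes (23.8%) and 22 clock-linked genes (31.4%) were lower, beside 24.4% of all genes. With it, 6 and 11 were lower, beside 15.6% of all genes. Higher without it were 16.7% of the clock genes and 18.6% of the clock-linked genes, beside 24.6% of all genes. The median log2 fold change of the clock genes tested was -0.064 without the filter on low means and from -0.306 to -0.055 when single libraries were left out, against -0.13. Without single libraries, 5 to 7 clock genes were called higher and 6 to 8 lower, and 8 to 11 clock-linked genes higher and 11 to 14 lower. Over the 42 clock genes tested and the alternatives, 471 values kept direction and call, 13 lost the call in 3 genes, 10 gained it in 5 genes and 8 turned in sign in 3 genes. Those that turned were never called: EFL1 BraA03g024640.3C ranged from -0.22 to 0.37, EFL2 BraA02g021140.3C from -0.40 to 0.28 and RVE8 BraA05g036930.3C from -0.32 to 0.23 without single libraries. Of the values of the 20 clock-linked genes called, 236 kept direction and call and 3 lost it, all in CKB3 BraA09g050080.3C, by scaling with library totals (0.98) and without ‘CX001’ library 2 (0.996) or ‘FT’ library 2 (0.98). The cause was not tested. Scaling by library totals moved the median of all genes tested to -0.07 and their calls to 3210 higher and 4207 lower, against 3444 and 3909. No paired analysis was possible because the libraries recovered here cannot be tied to replicate numbers. With 3 libraries per line, genes of few reads had wide intervals, and a clock gene that was not called is not shown to be alike in both lines.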

Other observations

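The KEGG circadian rhythm pathway of plants is annotated to 63 genes of the table, 15 of them among the 48 clock genes. Of the other 48, 44 were tested, with 5 (11.4%) called higher and 8 (18.2%) lower in ‘CX001’, beside 13.8% and 15.6% of all genes, and 25 of the 48 are in none of the lists above. These genes were looked up after values had been seen, and those named here were singled out for their size of change. Of the 13 called, 4 passed the filter on low means through 1 line only, namely both florigen genes and both A09 models below. In it, 2 florigen genes were higher in ‘CX001’. BraA02g016700.3C, matched to FLOWERING LOCUS T, the mobile signal that triggers flowering, had 39.6, 117 and 271 normalised counts in ‘CX001’, against 7.70, 2.89 and 2.11 in ‘FT’. The lines were far apart, and the ‘CX001’ libraries spanned 6.84-fold (log2 fold change 4.53, SE 0.70, adjusted p = 0.00118). BraA07g031650.3C, matched to its relative TWIN SISTER of FT, had 74.6, 79.1 and 168 in ‘CX001’, against 0, 0 and 0 in ‘FT’, at least 108-fold higher when ‘FT’ is set at a floor of 3 reads in its libraries together. Chalcone synthase genes, which encode the entry enzyme of flavonoid synthesis and cycle in *Arabidopsis*, were lower in 3 models, and the 2 others tested, BraA10g024990.3C and BraA02g005190.3C, were not called (adjusted p = 0.0656 and 0.152). BraA03g005990.3C had 1015, 761 and 1145 normalised counts in ‘CX001’, against 2769, 2672 and 4950.2 in ‘FT’, without overlap (log2 fold change -1.79, SE 0.26, adjusted p = 8.05e-04). The neighbouring models BraA09g002250.3C and BraA09g002260.3C had 1 read and 0 reads over ‘CX001’, against 284 and 68 reads over ‘FT’. The first level is 0.335% of that in ‘FT’ (0.00848% to 1.87% by the exact Poisson interval at 95%, for counting error alone). The second is at least 22.6-fold lower against the floor. Whether any of these differences goes with the clock genes was not tested.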
